A study of Mus musculus with 46 samples.

Results

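The genes Pdgfra, Gpr17, Enpp6, Neu4 and Zfp488 mark cells at the start of the oligodendrocyte lineage, and their total level and allele balance were followed with age in the dorsal raphe nucleus of hybrid mice. They were chosen by name, with earlier results of these data known. All 5 were found by Ensembl identifier among the 15499 genes (Pdgfra ENSMUSG00000029231, Gpr17 ENSMUSG00000052229, Enpp6 ENSMUSG00000038173, Neu4 ENSMUSG00000034000 and Zfp488 ENSMUSG00000044519). RNA came from 46 female F1 hybrid samples of the C57 and CAST strains, bred in crosses named F1i and F1r, with no treatment named. Each cross gave 7 samples at P5, 7 at P15 and 9 from adults, whose age is not given further. Every sample carries 1 genome of each strain, and each gene has a C57 count and a CAST count per sample. The direction of the crosses is not stated in the labels, and neither is whether adult samples that share a first label number came from separate animals. P values therefore measure the spread between these samples.

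Oligodendrocyte precursors divide, move through the brain and then differentiate into the cells that wrap axons in myelin. Precursors carry the receptor for platelet-derived growth factor on their surface, and they lose it when they leave the cell cycle. Committed and newly formed oligodendrocytes pass through a short stage with its own genes before the genes of compact myelin dominate. Pdgfra encodes that growth factor receptor, which drives precursors to divide and survive. Gpr17 encodes a G protein-coupled receptor of committed precursors that holds back their maturation. Enpp6 encodes a phosphodiesterase that acts on choline lipids, and it marks newly formed oligodendrocytes. Neu4 encodes a sialidase, an enzyme that removes sialic acid from glycans. Zfp488 encodes a zinc finger repressor that works with Olig2 in oligodendrocyte differentiation.

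Promoter windows, from 250 bases before to 50 bases after the gene start, were taken from RefSeq (GRCm38.p6) for 4 of the 5 members. Those of Zfp488 and Enpp6 are shown because Zfp488 had the largest change of allele balance among the members and Enpp6 the steepest loss of RNA after P15. Capitals mark matches, on either strand, to the SOX core motifs ACAAAG and ACAATG, the E-box forms CAGCTG and CATATG, the GC box GGGCGG and the TATA box TATAAA. The sequences are of the reference strain and hold no CAST variant. The Zfp488 window lies on the minus strand at chr14:33978715-33979014, and the Enpp6 window on the plus strand at chr8:46986637-46986936.
Zfp488: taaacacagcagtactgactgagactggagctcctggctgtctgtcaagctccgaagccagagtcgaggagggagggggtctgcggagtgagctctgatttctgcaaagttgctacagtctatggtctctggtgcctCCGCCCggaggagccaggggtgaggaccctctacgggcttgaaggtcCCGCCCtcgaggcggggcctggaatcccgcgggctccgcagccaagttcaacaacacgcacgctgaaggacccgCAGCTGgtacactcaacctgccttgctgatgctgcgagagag
Enpp6: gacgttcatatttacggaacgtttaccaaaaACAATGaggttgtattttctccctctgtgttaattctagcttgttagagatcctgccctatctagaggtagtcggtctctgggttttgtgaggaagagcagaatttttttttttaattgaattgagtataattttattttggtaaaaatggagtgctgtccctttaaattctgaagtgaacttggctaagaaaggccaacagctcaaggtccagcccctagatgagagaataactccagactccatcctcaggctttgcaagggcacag
The Zfp488 window held 2 GC boxes, both read on the opposite strand, at positions -113 to -108 and -66 to -61 counted from 0 at the start, and 1 E-box CAGCTG at 8 to 13. Among the windows of 27025 genes, 35.9% held a GC box and 16.1% held CAGCTG. The Enpp6 window held the SOX core ACAATG at -219 to -214, which 12.8% of windows also held. The windows of Pdgfra on chromosome 5 and Neu4 on chromosome 1 held none of the motifs. A match here is a description of letters and not a binding site.

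Total counts per sample ranged from 5100560 to 10319139 at P5, from 3692778 to 8032987 at P15 and from 4912934 to 13085952 in adults. Levels are given as CPM, the counts of both alleles relative to the sample total after TMM scaling, and are compared only within a gene because the counts are not divided by gene length. Markers of the region were present. The 7 measured serotonergic markers summed to 421 to 630 CPM at P5, 1007 to 1686 CPM at P15 and 1203 to 1745 CPM in adults. All 7 rose between P5 and adult. Whether the same share of the region was taken at each age was not tested. Each age was deposited as its own table, so age and any difference between runs cannot be told apart. In bulk tissue, fewer cells of a type and less RNA per cell cannot be told apart either.

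Pdgfra RNA fell at both steps, while Gpr17, Enpp6, Neu4 and Zfp488 were highest at P15 and fell steeply into adulthood. Pdgfra in F1i had a lowest, median and highest level of 347, 353 and 389 CPM at P5, and then of 225, 283 and 311 CPM at P15, with 112, 126 and 138 CPM in adults. In F1r the levels were 330, 354 and 376 CPM at P5, 237, 268 and 286 CPM at P15 and 116, 126 and 134 CPM in adults. No Pdgfra level at 1 age overlapped that at another, in the order P5, P15 and adult from high to low. The log2 change was -0.44 ± 0.04 (SE) from P5 to P15 and -1.09 ± 0.04 from P15 to adult (adjusted p = 1.74e-14 and 5.28e-30, edgeR's quasi-likelihood test). Adults held 34.9% of the mean P5 level of Pdgfra.

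Gpr17, the receptor of committed precursors, was measured at 512, 523 and 548 CPM (lowest, median and highest) in F1i at P5 and at 515, 643 and 786 CPM at P15. In F1r it was 508, 538 and 551 CPM at P5 and 557, 673 and 761 CPM at P15. P15 samples were thus more spread than P5 samples, and the lowest F1i level lay within the P5 range. The mean over both crosses went from 531 ± 13.7 CPM (SD, n = 14) to 663 ± 84.6 CPM (n = 14), a log2 change of 0.31 ± 0.06 (adjusted p = 7.81e-06). This rise was the only age change of a member to lose its call when P15 samples were left out along their first axis of variation, an alternative chosen after seeing the data. With only the 7 samples highest on this axis, which was computed without the members, it was 0.13 ± 0.06 (adjusted p = 0.0576), and with the 7 lowest it was 0.47 ± 0.06. Gpr17 itself decreased along this axis (r = -0.87 within P15), so a smaller rise with the highest samples follows from how they were chosen. Adults had 92.0, 115 and 130 CPM of Gpr17 in F1i and 89.8, 120 and 147 CPM in F1r, all below every younger sample. From P15 to adult Gpr17 fell 5.85-fold, a log2 change of -2.55 ± 0.06 (adjusted p = 2.11e-37).

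Enpp6 showed the largest swing of the members. Its lowest, median and highest levels in F1i were 16.9, 21.6 and 26.6 CPM at P5, 75.8, 97.0 and 117 CPM at P15 and 6.10, 8.60 and 10.6 CPM in adults. F1r had 22.8, 24.3 and 28.4 CPM at P5, 79.3, 84.8 and 108 CPM at P15 and 7.93, 9.71 and 12.6 CPM in adults. The 3 ages did not overlap in either cross, in the order P15, P5 and adult from high to low. Enpp6 rose 3.95-fold to P15 (log2 1.98 ± 0.07, adjusted p = 2.14e-30) and then fell 10.1-fold (log2 -3.34 ± 0.07, adjusted p = 1.82e-39). Of the 13637 genes tested, 7 including Enpp6 fell by as much or more from P15 to adult, and 27 fell by as much as Gpr17. Adult Enpp6 values rest on 43 to 135 counts per sample.

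Neu4, the sialidase gene, had 22.6, 24.1 and 26.6 CPM in F1i and 26.4, 28.5 and 31.3 CPM in F1r at P5 (lowest, median and highest). At P15 it had 113, 126 and 132 CPM in F1i and 114, 127 and 133 CPM in F1r. Adults had 28.8, 37.5 and 40.7 CPM in F1i and 31.1, 37.6 and 46.7 CPM in F1r. P15 stood far above both other ages, and the highest P5 samples overlapped the lowest adults. Neu4 rose 4.62-fold from P5 to P15 (log2 2.21 ± 0.05, adjusted p = 1.36e-37) and fell 3.33-fold from P15 to adult (log2 -1.73 ± 0.05, adjusted p = 1.05e-34). Among the members it was the one with a higher level in adults than at P5, by 0.47 ± 0.05 on the log2 scale (adjusted p = 3.65e-12).

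Zfp488, the zinc finger repressor, had 37.5, 43.4 and 47.5 CPM in F1i and 37.5, 39.8 and 44.4 CPM in F1r at P5. At P15 the lowest, median and highest were 67.0, 72.6 and 100.2 CPM in F1i and 66.8, 74.7 and 87.9 CPM in F1r. Adults had 26.3, 29.9 and 33.3 CPM in F1i and 26.0, 30.9 and 33.8 CPM in F1r. The 3 ages were separate, in the order P15, P5 and adult. The log2 change of the total level was 0.88 ± 0.05 to P15 and -1.38 ± 0.05 from there to adult (adjusted p = 1.82e-20 and 8.47e-29).

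All 5 members passed the test at each step, but so did most genes: 83.4% of the 13637 genes tested were called from P5 to P15 (42.5% higher and 40.9% lower), 74.7% from P15 to adult (37% higher and 37.7% lower) and 82.1% from P5 to adult (40.6% higher and 41.5% lower). The call itself therefore says little about the members, and the size and direction of the changes carry the description. From P15 to adult all 5 fell, and from P5 to P15 4 rose and 1 fell. The median log2 change of all genes was 0.02, -0.01 and -0.00465 in these comparisons.

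**Figure D1:**
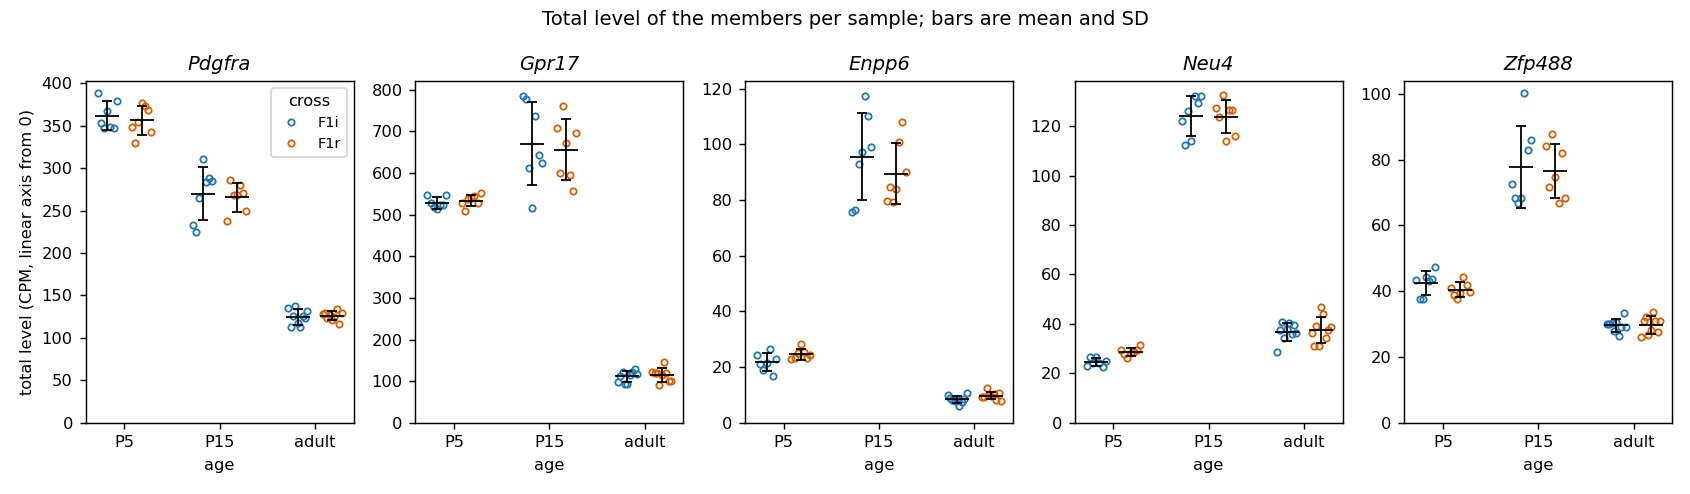
Total level (CPM, linear axis from 0) of each member by age and cross, with 1 open circle per sample and black bars for the mean and SD. Pdgfra declines over the 3 ages, and the other 4 members are highest at P15. Gpr17, Enpp6 and Zfp488 are lowest in adults, and Neu4 is lowest at P5.

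Other genes of the lineage were described by lists of markers. In the oligodendrocyte precursor list, which holds Pdgfra, 17 of 24 genes fell and 2 rose from P5 to P15, with a median log2 change of -0.63. From P15 to adult 17 fell and 3 rose, with a median of -0.47. Ptprz1, a receptor phosphatase of precursors and other glia, fell by 1.65 ± 0.04 on the log2 scale and then by 0.37 ± 0.04. Cspg5, a proteoglycan gene, fell by 1.76 ± 0.09 and then rose by 0.24 ± 0.08. Gpr37l1, a receptor that astrocytes also express, rose by 1.90 ± 0.06 to P15. Vcan, the versican gene, changed by 0.03 ± 0.05 to P15, which did not pass the test, and then fell by 0.93 ± 0.05. Summed over the list, P5 samples had 4410 to 4768 CPM, P15 samples 2074 to 2505 CPM and adults 1621 to 1853 CPM, with no gene at 0.

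The list of new oligodendrocyte genes holds Gpr17, Enpp6, Neu4 and Zfp488. Of its 21 genes, 15 rose and 6 fell from P5 to P15 (median log2 change 0.50), and 19 fell and 2 rose from P15 to adult (median -1.36). Bcas1, a marker of early myelinating cells, rose by 1.66 ± 0.04 and then fell by 0.76 ± 0.04. Sirt2, a deacetylase gene of oligodendrocytes, rose by 1.24 ± 0.04 and fell by 1.84 ± 0.04. Bmp4, which encodes a secreted growth factor, rose to P15 and then had the steepest fall of the list, to a mean under 1 CPM in adults. Tcf7l2, a transcription factor of differentiating oligodendrocytes that neurons also express, went the other way. It fell by 2.36 ± 0.14 and then rose by 1.53 ± 0.14. The 21 genes of the list summed to 2100 to 2265 CPM in P5 samples, 2905 to 3709 CPM in P15 samples and 1302 to 1560 CPM in adults. Lists of other cell types moved at the same steps: 8 of 8 microglia markers rose to P15 (median 0.95) and 6 of 8 then fell (median -0.47). Of 9 astrocyte markers 7 rose to P15 (median 0.73) and 6, not all the same genes, rose from P15 to adult. Of 7 endothelial markers 5 fell from P15 to adult (median -1.24). The part of these cells in the lineage values was not tested.

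Genes of mature oligodendrocytes and myelin all rose from P5 to P15 (19 of 19, median log2 change 3.40), among them Mbp by 3.34 ± 0.07. From P15 to adult 11 of 19 fell and 4 rose (median -0.77). Adults stayed above P5 for 19 of 19, with a median of 2.73. The precursor list had 23 of 24 genes lower in adults than at P5 (median -1.08) and the new oligodendrocyte list had 17 of 21 lower (median -0.79). Of 16 lineage regulators tested, 10 fell and 5 rose to P15. They included falls of 0.82 ± 0.08 for Olig2 and 2.47 ± 0.08 for Sox4, and a rise of 0.66 ± 0.10 for Myrf, the regulator of myelin genes. Of 8 cell cycle genes tested, 6 fell from P5 to P15 and 6 fell from P15 to adult.

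**Figure D2:**
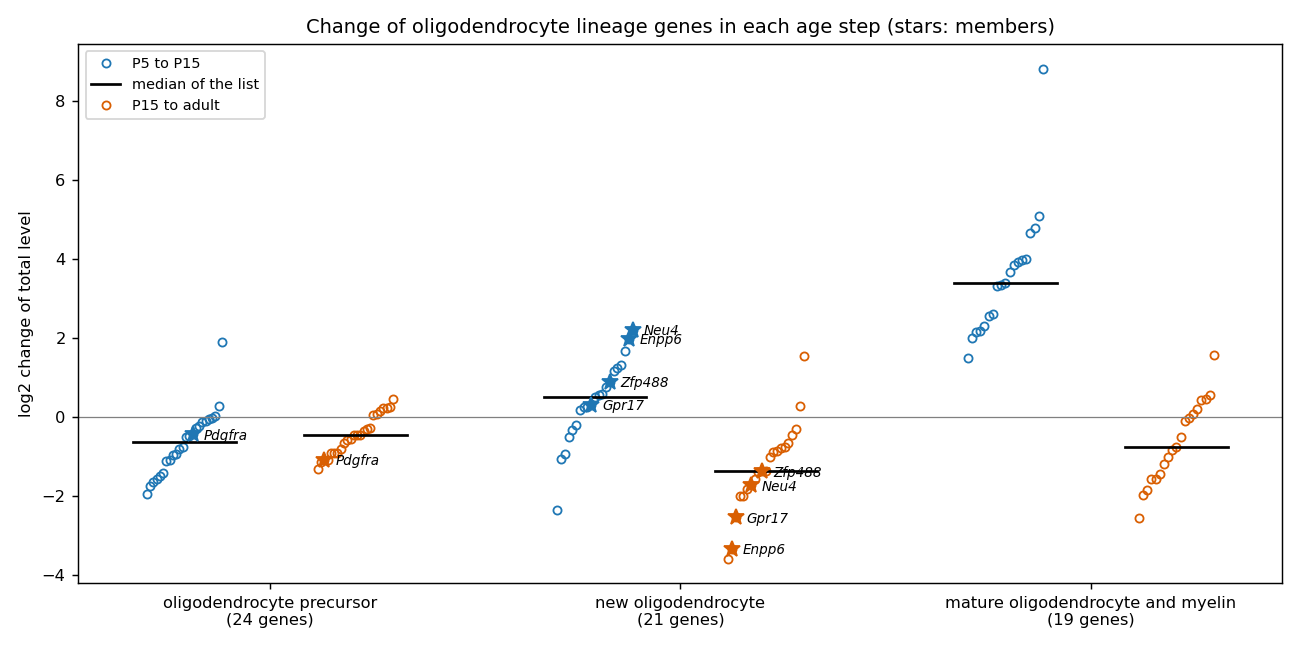
Log2 change of the total level for each gene of 3 marker lists, with P5 to P15 in blue and P15 to adult in orange, a circle per gene, a star for each member and a black line at the median of the list. The medians of the new oligodendrocyte list are 0.50 and -1.36, and those of the precursor list -0.63 and -0.47. The steps share the P15 samples.

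The ligands and the second receptor of the growth factor family did not move as Pdgfra did in every case. Pdgfa, which encodes the main ligand of this receptor, fell by 0.35 ± 0.07 on the log2 scale to P15 and rose by 0.32 ± 0.06 to adult. Its mean level was 38.6 ± 3.61 CPM at P5 and 38.2 ± 4.29 CPM in adults. Pdgfd rose by 2.18 ± 0.09 to P15, and Pdgfb fell by 1.74 ± 0.10. Pdgfrb, the receptor of vessel-associated mural cells, fell by 1.16 ± 0.08 to P15, and its change to adult of 0.04 ± 0.07 did not pass the test. Fibroblasts of the vessels and meninges also express Pdgfra. Of 12 markers of fibroblasts and mural cells, 6 rose and 4 fell to P15, 1 rose and 7 fell to adult, and their summed level was 254 to 298 CPM at P5, 331 to 756 CPM at P15 and 279 to 459 CPM in adults. No gene of that list had a mean of 0 at any age, but Lum at P5 and Col3a1 in adults had 0 counts in at least 1 sample. The part of these cells in the Pdgfra values was not tested.

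Relatives of the members followed other courses. Among the phosphodiesterase genes, Enpp2, which encodes autotaxin, rose by 1.99 ± 0.06 to P15 as Enpp6 did by 1.98 ± 0.07, but fell by 0.93 ± 0.06 to adult. Its mean level was 161 ± 12.3, 646 ± 102 and 338 ± 35.5 CPM at the 3 ages. Enpp5 fell by only 0.15 ± 0.03 from P15 to adult, and Enpp4 rose by 0.23 ± 0.05. Among the sialidases, Neu3 rose by 0.54 ± 0.07 and fell by 0.60 ± 0.06. Neu1, the lysosomal sialidase, changed by -0.06 ± 0.05 to P15, which did not pass the test, and rose by 0.25 ± 0.05 to adult. Kit, a receptor kinase gene 376701 bases from Pdgfra, fell by 0.80 ± 0.04 to P15. Prdm8, a relative of Zfp488, fell by 1.71 ± 0.21 to P15.

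The genes with the most similar course were found by the root mean square difference between centred group means of log2 CPM, over 6 groups and 11506 genes. For Pdgfra they were Pdzrn3 (0.02 log2 units), Srsf9 (0.04) and Uaca (0.04). For Gpr17 they were AU021092 (0.21), Itga1 (0.24) and Mpzl1 (0.25), so no gene followed Gpr17 as closely. Depp1 (0.23), Rab7b (0.32) and Gal3st1 (0.51), which encodes the enzyme that makes the myelin lipid sulfatide, were nearest to Enpp6. For Neu4 they were Sgk2 (0.07), the myelin enzyme gene Cnp (0.08) and Gsn (0.12), which encodes gelsolin. Cnp had 609 ± 45.8 CPM at P5, 2777 ± 355 CPM at P15 and 933 ± 123 CPM in adults. For Zfp488 they were Igsf1 (0.05), Arpc1b (0.07) and S100a6 (0.07). The members were less alike among themselves, from 0.57 for Zfp488 with Pdgfra to 1.14 for Neu4 with Gpr17.

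Correlations of the members from sample to sample were taken over all ages and within each age. Whether they differ between ages was not tested. Over all 46 samples, with the 6 group means removed, 0 of 10 pairs of members had a correlation of log2 CPM that passed the test (permutation within groups, adjusted over the 10 pairs, 2-sided), and 2 had an unadjusted p under 0.05. The most positive was Pdgfra with Enpp6 (r = 0.41, rho = 0.34, adjusted p = 0.126 and 0.164 by permutation), and r was 0.28 without the 2 samples farthest from the median of Pdgfra. In each pair the 2 samples left out were set by the gene named first only. The most negative was Pdgfra with Gpr17 (r = -0.36, rho = -0.27, adjusted p = 0.126 and 0.285 by permutation), and r was -0.24 without 2 samples. Within P5 this pair had r = 0.61 (adjusted p = 0.261 by permutation), an estimate of opposite sign to the pooled value that did not pass the test. Within P15 it had r = -0.73 and rho = -0.64 (adjusted p = 0.0494 and 0.0845 by permutation), and r was -0.60 without 2 samples. Neu4 and Zfp488 within P15 had r = 0.71 and rho = 0.74 (adjusted p = 0.0494 and 0.0712 by permutation), and r was 0.64 without 2 samples. These 2 of 10 pairs thus passed by r and not by rank, and 0 of 10 passed within P5 or within adults.

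The 14 P15 samples lay along a first axis of variation that held 47.9% of the variance of the other genes above a minimum mean level. Along it Pdgfra (r = 0.82, rho = 0.68) and Enpp6 (r = 0.76, rho = 0.73) increased and Gpr17 (r = -0.87, rho = -0.89) decreased, with adjusted p = 0.00447, 0.00827 and 0.000850 for r by permutation over 5 members. Without the 2 samples farthest from the median of the axis, r was 0.64, 0.57 and -0.82. Neu4 (r = 0.25) and Zfp488 (r = -0.09) did not pass the test. The axis was taken from these same samples after seeing the data, and the share of all genes that would pass was not computed. These values therefore do not set the members apart from other genes. What sets this axis was not tested.

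The cross made no difference to the members that passed the test. At P5, P15 and in adults 0 of 5 were called, against 1.17%, 0.0467% and 0.111% of all genes, and DESeq2 also called 0 at each age. With unadjusted p under 0.05 there were 2 at P5 and 0 at the later ages. Neu4 at P5 was nearest, with means of 24.5 ± 1.59 CPM in F1i and 28.6 ± 1.56 CPM in F1r (SD, n = 7 each) and a log2 difference of -0.22 ± 0.06 (adjusted p = 0.0591). The ranges of the crosses overlapped only narrowly, at 26.4 to 26.6 CPM. With library totals in place of TMM the difference was called, at -0.23 ± 0.06 (adjusted p = 0.0397). Enpp6 at P5 differed by -0.17 ± 0.07 (adjusted p = 0.425). For Pdgfra and Gpr17 at P5 the 95% intervals of the F1i minus F1r log2 difference were -0.03 to 0.09 and -0.06 to 0.04.

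At the same age the myelin genes were lower in F1i, 10 of 14 tested with a median of -0.46, including Mobp by -0.75 ± 0.05 and Mbp by -0.46 ± 0.04. The precursor list had 0 of 24 genes called in that comparison (median -0.03). The new oligodendrocyte list had 1 of 21 called, Prom1, which was higher in F1i by 0.26 ± 0.05 (median of the list -0.05). Other cell types held genes lower in F1i too, 3 of 7 serotonergic markers (median -0.26) and 3 of 8 neuron markers (median -0.05), with 0 higher in either list. Whether these lists differ from each other in the cross was not tested. The change of the cross effect between ages was called for 0 of 5 members in each of the 3 comparisons, by edgeR and by DESeq2, against 0.0147%, 0.0367% and 0% of all genes. Unadjusted p was under 0.05 for 1, 1 and 0 members.

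Each member was then split into its C57 and CAST alleles, which share 1 cell environment in these hybrids. The strain effect is the log2 ratio of CAST to C57 averaged over both crosses, and the CAST share is the CAST percent of both alleles. CAST held 50.1% to 52.2% of all counts in each sample. How reads were assigned to an allele is not given in the sources used here, so a bias of mapping and a difference of expression cannot be told apart at a single age. A change with age compares the same gene with itself, but whether a bias of mapping stays the same between ages was not tested.

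Zfp488 went from near balance to a strong CAST excess. Its CAST share in F1i had a lowest, median and highest value of 46.1%, 52.8% and 54.3% at P5, then of 54.4%, 61.0% and 62.6% at P15, and finally of 72.7%, 76.7% and 81.6% in adults. In F1r the values were 48.1%, 52.0% and 55.7% at P5, 57.5%, 60.2% and 63.1% at P15 and 72.0%, 76.8% and 82.0% in adults. The crosses overlapped at every age, and no adult share overlapped that of a younger sample. All 18 adult samples had a 95% Wilson interval above 50%, as did 12 of 14 at P15 and 0 of 14 at P5, at 151 to 426, 273 to 669 and 204 to 485 counts per sample. These intervals cover counting error only. The strain effect of Zfp488 was 0.11 ± 0.05 at P5 (adjusted p = 0.0361), 0.61 ± 0.04 at P15 (1.43e-17) and 1.72 ± 0.05 in adults (1.59e-26). The small P5 effect was not called with DESeq2 (0.11, adjusted p = 0.282) or with each allele column scaled by TMM (0.10, adjusted p = 0.0550).

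The alleles of Zfp488 followed different courses. The C57 allele had 19.9 ± 1.61 CPM at P5, 30.7 ± 3.32 CPM at P15 and 6.88 ± 0.98 CPM in adults. The CAST allele had 21.5 ± 2.15, 46.5 ± 7.55 and 22.8 ± 1.98 CPM at these ages. The adult CAST allele was thus at 106% of its P5 level and the adult C57 allele at 34.5%. The strain effect changed by 0.49 ± 0.07 from P5 to P15, by 1.12 ± 0.07 from P15 to adult and by 1.61 ± 0.07 from P5 to adult (adjusted p = 3.57e-08, 2.13e-22 and 4.13e-29). Of 12430 genes, 18 including Zfp488 had a rise as large from P5 to adult. Adult samples share a second label number across crosses, and within samples of number 1, 2 and 3 the adult strain effect was 1.80 ± 0.09, 1.64 ± 0.09 and 1.71 ± 0.07.

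Zfp488 overlaps no other gene of the annotation used. Its nearest measured neighbour on one side, the annexin gene Anxa8, also had a CAST excess, with a strain effect of 0.50 ± 0.16, 0.96 ± 0.10 and 1.17 ± 0.09 at P5, P15 and adult and a change from P5 to adult of 0.67 ± 0.19 (adjusted p = 0.00410). Anxa8 lies 107217 bases from Zfp488, and its mean level was 3.84 ± 0.86 CPM at P5 and 7.20 ± 1.63 CPM in adults. On the other side Gdf10, the nearest gene tested there and a growth factor gene with 4.24 ± 0.93 CPM at P5, had a strain effect of 0.37 ± 0.15 at P5 and a change to adult of -0.15 ± 0.24 (adjusted p = 0.696). Of 14 lineage regulators tested, Zfp488 was the 1 with a called rise of the strain effect from P5 to adult and 0 had a fall, where 14.1% of all genes had a rise and 15.5% a fall. Over single steps, Olig2 rose by 0.26 ± 0.06 to P15 and fell by 0.17 ± 0.06 to adult, and from P15 to adult Myrf rose by 0.16 ± 0.04 and Sox4 fell by 0.40 ± 0.12. From P5 to adult the estimates were 0.09 ± 0.05 for Olig2, 0.04 ± 0.06 for Sox10 and 0.10 ± 0.05 for Myrf, and none of these 3 passed the test.

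**Figure D3:**
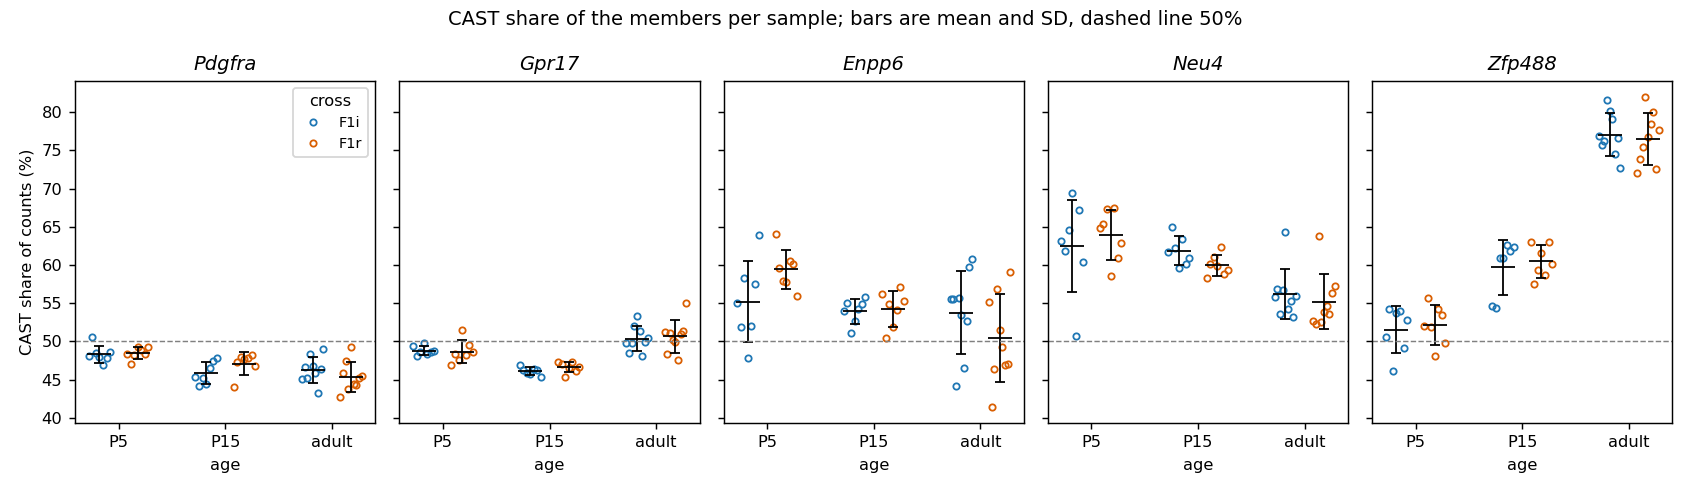
CAST share (% of both alleles' counts) of each member by age and cross, with 1 open circle per sample, black bars for the mean and SD and a dashed line at 50%. Zfp488 climbs from near 50% to between 72.0% and 82.0% in adults, while Neu4 and Enpp6 move toward 50%.

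Neu4 had the opposite trend. Its CAST share was 50.7%, 63.1% and 69.4% in F1i and 58.6%, 64.8% and 67.5% in F1r at P5 (lowest, median and highest). At P15 it was 59.7%, 61.7% and 65.0% in F1i and 58.4%, 59.9% and 62.4% in F1r. Adults had 53.2%, 55.9% and 64.4% in F1i and 52.3%, 53.8% and 63.7% in F1r. Every sample was above 50%, and 1 sample of each adult group stood well above the others of its group. Its strain effect, called at each age, was 0.77 ± 0.07 in P5 samples, 0.64 ± 0.03 in P15 samples and 0.32 ± 0.04 in adults. The change from P15 to adult was -0.32 ± 0.05 (adjusted p = 3.32e-06), and that from P5 to P15 of -0.13 ± 0.07 did not pass the test (adjusted p = 0.224). The nearest measured genes on each side went different ways. They lie 168103 bases (D2hgdh) and 1285289 bases (Fam174a) from Neu4. D2hgdh, a dehydrogenase gene on one side, had a strain effect of 0.37 ± 0.09, 0.62 ± 0.09 and 0.78 ± 0.05 and a change from P5 to adult of 0.41 ± 0.10 (adjusted p = 0.00148). Fam174a on the other side had 0.03 ± 0.04, 0.10 ± 0.04 and -0.14 ± 0.02, with a change of -0.16 ± 0.05 (adjusted p = 0.00673).

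Enpp6 had a smaller CAST excess that was called at P5 and P15 only. Its CAST share was, from lowest to highest, 47.8%, 55.1% and 63.9% in F1i and 55.9%, 59.5% and 64.1% in F1r for P5 samples. At P15 it was 51.1%, 54.2% and 55.8% in F1i and 50.5%, 54.9% and 57.1% in F1r. Adults ranged from 44.2% to 60.7% in F1i and from 41.4% to 59.1% in F1r. The adult shares were the most spread of any member and fell on both sides of 50%, with Wilson intervals up to 28.6 percentage points wide. The strain effect was 0.43 ± 0.07, 0.25 ± 0.03 and 0.14 ± 0.08 at the 3 ages (adjusted p = 1.97e-07, 3.92e-08 and 0.0930), and its change from P5 to adult was -0.29 ± 0.10 (adjusted p = 0.0175).

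Pdgfra leaned to C57 at every age. Its CAST share was 46.9% to 50.5% in F1i and 47.0% to 49.3% in F1r at P5, 44.2% to 47.8% and 44.0% to 48.2% at P15, and 43.3% to 49.0% and 42.7% to 49.2% in adults. Only 1 of 46 samples, at P5, was above 50%. For the P5, P15 and adult samples the strain effect was -0.09 ± 0.02, -0.20 ± 0.02 and -0.25 ± 0.02 (adjusted p = 6.69e-06, 1.41e-10 and 1.12e-11), and it changed by -0.11 ± 0.03 to P15 (adjusted p = 0.00588). The P5 value is small, and DESeq2 gave the same -0.09 without a call (adjusted p = 0.103). The nearest measured genes were Chic2, Lnx1, Kit and Kdr, which lie 107518, 449380, 376701 and 734612 bases from Pdgfra. They also leaned to C57 at P5, with strain effects of -0.19 ± 0.07, -0.19 ± 0.05, -0.14 ± 0.03 and -0.29 ± 0.05. From P5 to adult Kit and Kdr, the receptor kinase genes on one side, changed toward CAST by 0.15 ± 0.04 and 0.48 ± 0.12 (adjusted p = 0.00276 and 0.00110). The changes of Chic2 and Lnx1, on the other side, were -0.14 ± 0.09 and -0.16 ± 0.07 and did not pass the test. Antisense genes of the annotation overlap Pdgfra and Enpp6 and were not used here.

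Gpr17 had a small C57 excess at P5, a larger one at P15 and none detectable in adults. The CAST share was 48.0% to 49.8% in F1i and 46.9% to 51.5% in F1r at P5, and 45.3% to 47.0% and 45.4% to 47.4% at P15. Adults had 48.1% to 53.3% in F1i and 47.5% to 55.0% in F1r, above every P15 sample. The strain effect was -0.07 ± 0.02, -0.21 ± 0.02 and 0.02 ± 0.02 (adjusted p = 4.26e-05, 3.90e-16 and 0.369), with an adult 95% interval of -0.02 to 0.07. With DESeq2 the P5 value was -0.07 without a call (adjusted p = 0.196). The change from P15 to adult was 0.23 ± 0.03 (adjusted p = 8.89e-11). Lims2, which encodes a focal adhesion protein, overlaps Gpr17 on the opposite strand. Its own strain effect was -1.73 ± 0.14, -1.48 ± 0.10 and -0.08 ± 0.09 in P5, P15 and adult samples, at mean levels of 5.88, 13.3 and 5.19 CPM. Whether strand was used in counting is not stated, so reads of Gpr17 and Lims2 cannot be told apart where they overlap.

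**Figure D4:**
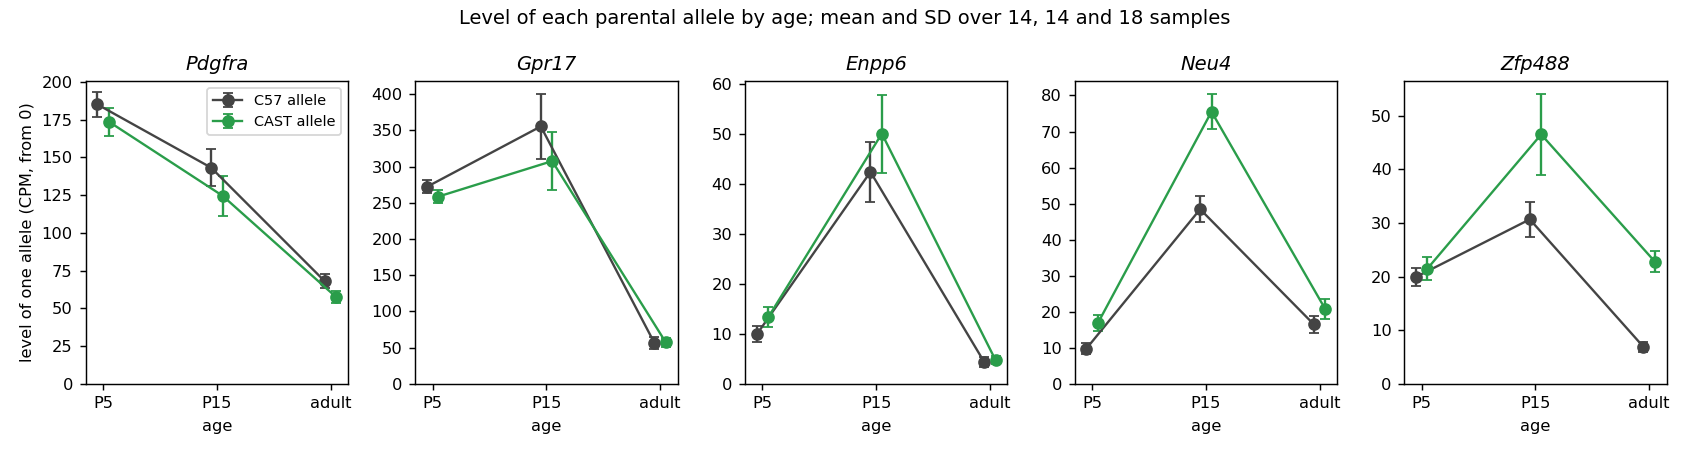
Level of the C57 allele (grey) and the CAST allele (green) of each member, in CPM on linear axes from 0, as the mean and SD over 14 samples at P5, 14 at P15 and 18 adults. The C57 allele of Zfp488 ends at 6.88 CPM and its CAST allele at 22.8 CPM, after a near equal start.

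Counted together, all 5 members had a called strain effect at P5 and again at P15, and 3 of 5 did in adults, against 58.4%, 58.4% and 67.8% of all genes. Its change with age was called for 3 of 5 members from P5 to P15, 3 of 5 from P15 to adult and 5 of 5 from P5 to adult. Among 12430 genes, 18.7% were called from P5 to P15 (9.06% rises and 9.65% falls), 15.5% from P15 to adult (7.47% and 8%) and 29.6% from P5 to adult (14.1% and 15.5%). With 5 members chosen by name, and with earlier results of these data known, no test of this count was made. In the new oligodendrocyte list 10 of 21 genes had a called rise and 3 a called fall of the strain effect from P5 to adult (median 0.10), and in the precursor list 4 of 21 rose and 4 fell (median 0.03), against a median of -0.00363 for all genes. Besides Zfp488 the rises included Lims2 (1.65 ± 0.18) and Prom1 (0.61 ± 0.07). Reads of Lims2 cannot be told apart from those of Gpr17 where the 2 genes overlap.

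A parental effect was taken as the log2 CAST to C57 ratio in F1i minus that in F1r, divided by 2. It was called for 0 of 5 members at P5, P15 or in adults, by edgeR and by DESeq2, and 0 members had an unadjusted p under 0.05 at any age. All genes gave 2.71%, 0.742% and 2.71%. The adult estimate for Zfp488 was 0.01 ± 0.05, with a 95% interval of -0.10 to 0.12, and the CAST share there was 77.1 ± 2.78% in F1i and 76.5 ± 3.39% in F1r (SD, n = 9 each). The allele balance of Zfp488 thus went with the strain of the allele, at nearly the same value in both crosses. For Enpp6 the widest estimates were -0.10 ± 0.07 at P5 and 0.10 ± 0.08 in adults.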

How the data were processed

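The authors deposited 3 tables, 1 for each age, of raw counts for every gene on each allele, with 15499 Ensembl identifiers and 92 columns, per the file headers. Per the labels' protocols, RNA was taken with a Qiagen column kit, libraries were made with Illumina TruSeq, and reads were 50 bp single-end. The submitters' processing notes name Novoalign and the mm9 build. Allele assignment, multiple mapping and strand are not given in the sources used here. Symbols and neighbours came from a GENCODE annotation of GRCm38 by identifier (14969 genes), and 91 genes held no count.

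Totals (C57 plus CAST) were fitted with edgeR 4.0.16 in R 4.3.3 (TMM, filterByExpr, quasi-likelihood), with 6 groups for age and each age alone for the cross. Alleles were fitted as 2 columns per sample with a term for each sample, the sample total as library size, and a minimum of 20 for the mean over samples of both alleles' counts. P values were adjusted by Benjamini-Hochberg over all genes tested, with a call at 0.05. SE is the absolute log2 value over the root of F, and 95% intervals are the estimate ± 1.96 SE. Correlations used log2 CPM with a prior count of 1 and 100000 permutations. On simulated data, 100% of 200 genes changed by 1 log2 unit were recovered for P5 to P15 (13252 genes), and 94% of 200 changed by 0.5 for the adult strain effect (12667 genes). The simulation gave all genes the same fixed spread and no shared axis of variation between samples, and changed genes had mean counts of at least 20. These rates need not hold for the real samples. Depth was 3692778 to 13085952 counts per sample, and single shares have 95% Wilson intervals.

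The named genes are the 5 members, up to 4 others of each list with the smallest p in an age step, the 3 genes most alike in course and relatives of the members, and members of the lists and neighbours with values that bear on a member were added after their values were seen. The members and lists were chosen with earlier results of these data known. Alternatives were other scalings, count filters, DESeq2 1.42.0, limma 3.58.1, summed adult counts and a replicate block. No main fit paired samples. The replicate block, run as an alternative at each age, added a term for the sample number, in adults the second label number. Deviations of same-numbered samples from the 2 crosses all had correlations above 0.1 in adults (0.52 to 0.80 over 3 numbers, from the data). This did not hold at P5 (-0.09 to 0.08) or P15 (-0.41 to 0.75). The adult cross and parental estimates given above do not use this pairing. No 2 samples agreed within sampling noise (chi-square per degree of freedom of 1.27 or more).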

Additional observations from a re-analysis of the deposited data

Results flagged for a closer look

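The strain effect of Zfp488 differed between ages, by 0.49 from P5 to P15, 1.12 from P15 to adult and 1.61 from P5 to adult in log2 units, each by a test of the change itself in edgeR's quasi-likelihood model. Neu4 changed the other way, by -0.32 from P15 to adult and -0.45 from P5 to adult. Gpr17 changed by -0.14 from P5 to P15, by 0.23 from P15 to adult and by 0.10 from P5 to adult. Pdgfra changed by -0.11 from P5 to P15 and -0.16 from P5 to adult, and Enpp6 by -0.29 from P5 to adult.

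In 60 sets of values, 5 members with level and CAST share in 6 groups, 4 single samples stood apart by Dixon's criterion at 95%, where chance marks about 1 set in 20. All were CAST shares. Neu4 had 64.4% in the adult F1i sample 2_2, with the next at 56.8%, and 63.7% in the adult F1r sample 5_3, with the next at 57.2%. Gpr17 had 55.0% in the adult F1r sample 7_3, with the next at 51.3%. Pdgfra had 44.0% in the P15 F1r sample 1, with the next at 46.8%.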

How the results depend on the processing

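Across the alternatives fixed at the start, 498 of 505 values of single members or pairs kept their side of the threshold. Under alternatives chosen after seeing the data, 44 of 45 did. No value that passed the test in either fit changed direction. Changes of direction between values that passed in neither fit were not counted. Pdgfra with Neu4 was such a pair (r = -0.18 over all samples and 0.17 with P5 and P15 samples only). With library totals and no TMM, the cross effect at P5 had 1 member called, Neu4. With DESeq2 the strain effect at P5 had 2 members called, since Pdgfra (-0.09, adjusted p = 0.103), Gpr17 (-0.07, 0.196) and Zfp488 (0.11, 0.282) no longer passed. With each allele column scaled by TMM, Zfp488 at P5 was 0.10 (adjusted p = 0.0550), and the change of the Enpp6 strain effect from P5 to P15 passed at -0.22 (adjusted p = 0.0306). With P5 and P15 samples only, 1 pair of members passed, Pdgfra with Enpp6 (r = 0.62, adjusted p = 0.0245 by permutation). The Gpr17 rise to P15 of 0.13 with the 7 P15 samples highest on their first axis was the exception among the added ones. Gpr17 itself decreased along that axis. The cause of the other shifts was not tested. The replicate block left 5 of 5 members called from P5 to P15 and 0 of 5 for the cross and parental effects at each age, and changed no call of a member.

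Counts over all genes moved more. The adult cross effect gave 15 genes, 53 with DESeq2, 77 with the replicate block and 306 with adult counts summed over the first number. The change of the cross effect gave 2, 5 and 0 genes and 4, 12 and 3 with DESeq2. The parental effect gave 327 genes at P5 and 344 in adults, and 120 and 138 with DESeq2. With library totals, 30.4% of the P5 cross calls were higher in F1i against 42.4%, and at P15 71.4% against 83.3%. With TMM per allele column, 33.6% of the strain effect changes to P15 and 66.2% of those to adult were rises, against 48.4% and 48.3%. Depth limits Enpp6 in adults, where the lowest sample had 43 counts.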
